A study of Mus musculus with 36 samples.

Results

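Heat shock proteins and small chaperones were followed through single cells of the mouse heart after ischemic injury. The rule takes them by gene symbol and uses no measured value, but the set was drawn up with earlier results of these data known. These 9 genes, of 20720 nuclear genes in the deposited tables, were the small heat shock proteins Hspb1, Hspb6, Hspb7 and Cryab, the Hsp70 genes Hspa8, Hspa1a and Hspa1b, the Hsp90 gene Hsp90aa1 and the Hsp40 co-chaperone Dnajb1. All 9 had rows in the tables. Male C57BL/6 mice aged 8 weeks gave the cells, which were taken from the infarct and border region of the left ventricle or from the matching region of sham hearts. The mice had undergone ischemia-reperfusion (IR), in which the left anterior descending coronary artery was closed for 1 h and then reopened, myocardial infarction (MI), in which the same artery was closed for good, or sham surgery. Cells were sorted into plates of 384 wells and sequenced by SORT-seq, a plate-based method that counts transcripts by unique molecular identifiers (UMIs). There were 4 plates of sham hearts at day 1, 8 at day 14, 9 of IR hearts at day 1, 7 at day 3 and 3 at day 14, and 5 plates of MI hearts at day 3. No allele, drug or transgene is given for any group.

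The plate served as the replicate. Labels do not tie plates to mice, and the MI group had more plates than the study describes mice. Plates of 1 mouse would then count as separate samples, and the p-values given here would be too low. Sham hearts of day 3 were not analysed here. Both day 3 groups were set against the mean of sham day 1 and sham day 14 and so share these controls. The MI plates held 2420593 to 4261077 nuclear UMIs each, and all other plates 28642 to 2798928. The MI plates carry a protocol label of their own, so plate series and MI cannot be told apart. Wells with at least 1000 nuclear UMIs numbered 3146, and 3127 remained after 19 wells whose contents matched a well of another plate were left out. Replicates 2 and 7 of sham day 14 held the same wells and were averaged for plate levels and tests only. Counts of cells, pooled levels, shares of cells and correlations include both of these plates. The cells were clustered without the 9 members. This gave 1146 cardiomyocyte-like cells, 382 endothelial-like and 21 mural-like cells of the vessel wall, 329 fibroblast-like cells, and 619 macrophage-like and 156 neutrophil-like leukocytes. In every cluster so named at least 6 markers of its cell type were raised. The other 474 cells fell in clusters that did not meet the rule for a name and stayed unnamed.

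Chaperones hold other proteins in a soluble, folded or foldable state. Small heat shock proteins bind partly unfolded proteins without ATP, and in striated muscle Cryab, Hspb6 and Hspb7 sit largely at the sarcomere and its desmin network. Hsp70 proteins bind and release their clients with ATP, aided by Hsp40 proteins such as Dnajb1, and Hsp90 completes the folding of kinases and receptors. Hspa8 is the constitutive form of Hsp70, whereas Hspa1a and Hspa1b are the classical inducible forms that heat shock factor 1 (Hsf1) switches on under heat or protein damage.

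In GRCm38 the genes lie on 7 chromosomes. Hspa1b (chr17:34956436-34959238, minus strand) and Hspa1a (chr17:34969190-34972156, minus strand) are near-identical neighbours separated by 9951 bases. Reads of this pair could have been split or shared in counting, so both are uncertain one by one and their sum is given beside them. Hspb1 lies at chr5:135887919-135889563, Hspb6 at chr7:30552178-30555443, Hspb7 at chr4:141420779-141425311, Cryab at chr9:50751325-50756636, Hspa8 at chr9:40800984-40810087 and Dnajb1 at chr8:83608193-83612653, all on the plus strand. Hsp90aa1 lies at chr12:110690605-110702728 on the minus strand. RefSeq promoter windows (GRCm38.p6, 250 bases before to 50 after a start) were at hand for 6 members. The windows were searched for GAANNTTC, the inverted pair of the unit that Hsf1 recognises, which reads the same on both strands. It occurred in windows of 4 of these 6 members. A background rate for GAANNTTC alone is not given, so these 4 cannot be set against other genes. The stretches that hold it are shown because they separate the inducible pair and 2 small heat shock proteins from the members without a match, and capitals mark the match:
Hspb1, chr5:135887782-135887849, plus strand: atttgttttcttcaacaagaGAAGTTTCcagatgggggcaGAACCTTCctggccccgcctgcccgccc
Hspb6, chr7:30553161-30553208, plus strand: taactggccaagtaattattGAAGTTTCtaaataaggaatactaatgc
Hspa1b, chr17:34959315-34959362, minus strand: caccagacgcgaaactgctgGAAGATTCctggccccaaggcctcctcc
Hspa1a, chr17:34972233-34972280, minus strand: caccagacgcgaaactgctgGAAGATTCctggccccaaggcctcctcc

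The Hspa1a and Hspa1b stretches were the same letter for letter, and their whole windows of 300 bases were identical at 296 positions. Hspb1 held 2 matches. In Hspb6 the match lay in only 1 of its 2 windows. No match was found in the windows of Hspb7 and Dnajb1, which says only that these letters are absent there. A match is a description of the letters and not evidence of binding.

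The members fell into 2 patterns across cell classes. Levels are given as CPM, the UMIs of a gene for every 1000000 nuclear UMIs, and since clusters define the classes, differences between classes are described without a test. Pooled over all groups, Cryab stood at 4185 CPM in cardiomyocyte-like cells and at 490, 460, 274, 241 and 124 CPM in endothelial-, neutrophil-, mural-, fibroblast- and macrophage-like cells. Hspb7 and Hspb6 had the same leading class, with 1214 and 882 CPM in cardiomyocyte-like cells and at most 148 and 145 CPM in any other. Hspb1 was shared between the muscle and the vessel wall, with 786 CPM in cardiomyocyte-like, 675 in mural-like and 523 in endothelial-like cells but 42.0 in macrophage-like cells.

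The remaining 5 members were lowest or nearly lowest in cardiomyocyte-like cells. Hspa8 was found at 2105 CPM in fibroblast-like, 2079 in macrophage-like, 1790 in mural-like and 1729 in endothelial-like cells, against 862 in cardiomyocyte-like and 567 in neutrophil-like cells. Hsp90aa1 ran from 1205 CPM in fibroblast-like to 266 in cardiomyocyte-like cells. For Dnajb1 the range was 130 CPM in mural-like to 11.9 in cardiomyocyte-like cells. Hspa1a and Hspa1b reached 201 and 121 CPM in mural-like, 80.0 and 104 in endothelial-like, and 4.34 and 6.95 in cardiomyocyte-like cells. The mural-like pool had only 21 cells. One of them, on MI replicate 4, held 426261 nuclear UMIs, with 95 of Hspa1a and 42 of Hspa1b. No plate reached 5 mural-like cells, so all mural-like levels given here, and the rank of that class, lean on this 1 well.

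**Figure D1:**
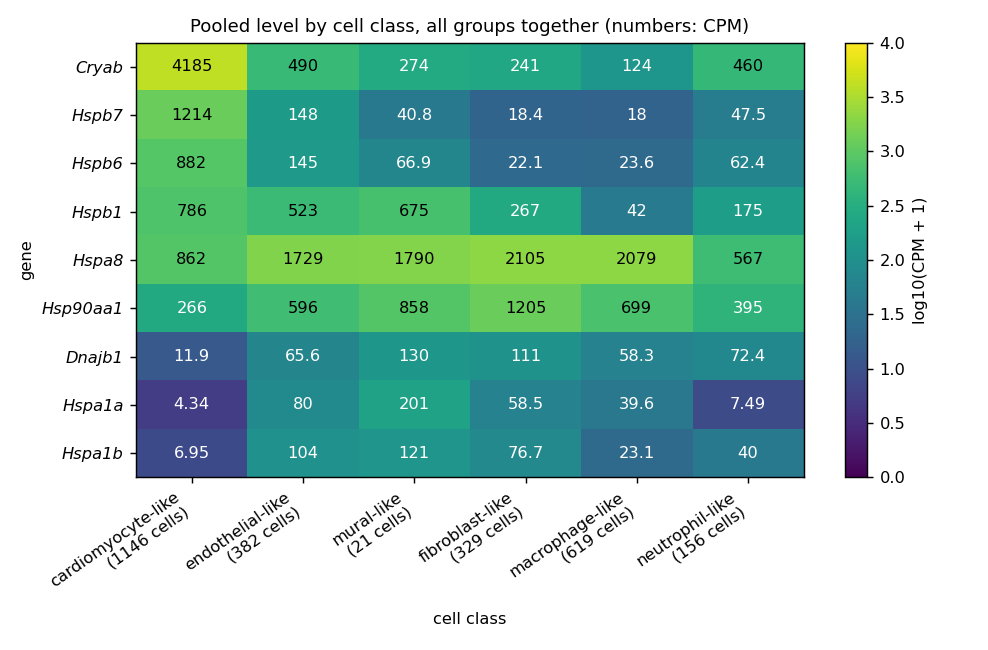
Level of each of the 9 members (rows) in the 6 named cell classes (columns), pooled over all groups, in CPM, with colour on a log10(CPM + 1) scale. Deeper plates weigh more in these pools, and the 21 mural-like cells include 1 of 426261 nuclear UMIs. Cryab, Hspb6 and Hspb7 peak in cardiomyocyte-like cells, and Hspa1a, Hspa1b and Dnajb1 are lowest there or, for Hspa1a, close to the neutrophil-like level of 7.49.

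Within sham day 1, where 4 classes had at least 3 plates each, the spread over plates shows which classes were apart. The pooled levels mix groups in unequal shares, and some orders differed here. Hspb1 was higher in endothelial-like than in cardiomyocyte-like cells of sham day 1, and Hspa8 was higher in macrophage-like than in fibroblast-like cells. For Hspb6 no class overlapped another, with 295 to 602 CPM over the cardiomyocyte-like plates, 84.1 to 210 over endothelial-like, 52.4 to 65.0 over fibroblast-like and 15.3 to 33.6 over macrophage-like plates. Cryab was 1676 to 2302 CPM on cardiomyocyte-like plates and 389 to 570 on endothelial-like plates, and the endothelial-, fibroblast- and macrophage-like ranges overlapped in turn. Hspb1 was 548 to 810 CPM on endothelial-like plates, above 313 to 520 on fibroblast-like and 234 to 325 on cardiomyocyte-like plates, whose ranges met, and macrophage-like plates lay lowest at 29.4 to 101. Hspa8 was highest on macrophage-like plates, at 1470 to 2013 CPM, clear of the endothelial-like range of 1039 to 1219. Hsp90aa1 spread from 118 to 1125 CPM over 3 macrophage-like plates, and these plates overlapped every other class.

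Shares of cells with a UMI followed the same order once every cell was thinned to 1000 UMIs. Cryab was seen in 86.9% of 1146 cardiomyocyte-like cells against 12.1% of 619 macrophage-like cells. Without thinning these shares were 95.7% and 60.3%, at median depths of 2282 and 12226 UMIs per cell. Hspb1 was seen in 18.7% of thinned cardiomyocyte-like cells at sham day 1, 33.2% at sham day 14, 61.8% at IR day 1, 29.5% at IR day 3, 29.4% at IR day 14 and 80.0% after MI. Hspa1a was seen in 0.524% of thinned cardiomyocyte-like cells and in 4.52% of macrophage-like cells.

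The first question was how cardiomyocyte-like cells changed at day 1 of reperfusion. Hspb1, which protects actin filaments under stress, rose, and no other member passed the test. On the 3 IR day 1 plates with at least 5 such cells Hspb1 measured 4147, 5159 and 2572 CPM. On the 4 sham day 1 plates it measured 234, 325, 247 and 288 CPM. Every IR plate was far above every sham plate. The log2 difference was 3.23 ± 0.45 (SE, edgeR quasi-likelihood test on UMIs summed per plate and class, p adjusted over all genes by Benjamini-Hochberg = 6.66e-08). Of the 6 members that passed the low-count filter in this class this was the 1 call, where 12.0% of all 4251 genes tested were called.

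Cryab stood at 3774, 10430 and 3528 CPM on the IR day 1 plates and at 2073, 2302, 1973 and 1676 CPM on the sham day 1 plates. These groups did not overlap, yet the fitted difference was 0.87 ± 0.42 with an adjusted p of 0.173. Hsp90aa1 likewise lay at 435 to 581 CPM against 142 to 180 CPM, with a difference of 1.10 ± 0.44 (adjusted p = 0.0813). This comparison depends on scaling, because the median gene moved by -0.54 on the log2 scale under the TMM factors used and by 0.05 under RLE factors. Measured from those medians, Hspb1 stood 3.77 above the median gene. With RLE factors, and also with DESeq2, 4 members were called, namely Hspb1, Cryab, Hsp90aa1 and Hspb7, at 1.54 for Cryab, 1.70 for Hsp90aa1 and 1.31 for Hspb7 under RLE. Over all genes these 2 settings called 445 and 394, against 510 in the main fit. For Hspb7 the direction turned in cells of at least 2000 UMIs (-0.55). The 10 cardiomyocyte markers together summed to 39620 to 48280 CPM on the IR plates and to 74520 to 96410 CPM on the sham plates, with 7 of 10 lower, and the part of this in the members' values was not tested. The 3 IR plates held 6, 5 and 15 cells.

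Immediate early genes, transcription factors and regulators that respond within minutes to stress or handling, moved with these values. Of 11 tested 5 rose and none fell, led by Zfp36 (3.31 ± 0.79) and Ier3 (1.89 ± 0.49), and their summed level was 1249 to 2295 CPM against 340 to 468 CPM. Their part in the members' change was not tested. Among 26 tested genes of a list of 35 other chaperones and partners, such as Hsp90ab1, Hsph1, Hspd1 and Bag3, none rose and 1 fell. That gene was Dnajc7, a co-chaperone of Hsp70 and Hsp90, at -6.34 ± 2.16.

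At day 3 of reperfusion Cryab, the lens crystallin that binds desmin and titin in muscle, and Hspb1 were higher than in sham. Cryab measured 7086, 4762, 14090, 4384 and 5146 CPM on 5 plates, all above the 9 sham plates, which ran from 1676 to 3519 CPM. Its difference was 1.11 ± 0.30 (adjusted p = 0.011). Hspb1 measured 483, 463, 3124, 544 and 574 CPM against 91.1 to 704 CPM in sham, so that 4 of the 5 plates lay within the sham range. Its difference was 1.29 ± 0.32 (adjusted p = 0.0042). These were 2 of the 6 members tested, beside 6.05% of all genes. Under RLE factors, where the median gene stood at 0.10 and not at -0.01, Hspb6 was called as well.

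Both calls leaned on replicate 5, a plate with 16 cells that held the 14090 and the 3124 CPM. Without it Hspb1 was 0.39 (adjusted p = 0.58) and Cryab 0.68 (adjusted p = 0.243). Without replicate 7 or sham day 1 replicate 3 Cryab kept nearly its size, at 1.06 and 1.07, but missed the threshold (adjusted p = 0.073 and 0.0524). With no gene filter neither was called, at 1.17 for Hspb1 (adjusted p = 0.0542) and 1.06 for Cryab (adjusted p = 0.106). Hspb6, a relative that is phosphorylated by cyclic nucleotide kinases, measured 5637 CPM on replicate 3, a plate of 5 cells, and 812 to 1239 CPM on the other 4. Hspb6 did not pass (0.67 ± 0.29, adjusted p = 0.176), although it was called under RLE factors (0.90) and by DESeq2 (0.97, adjusted p = 0.0294). Hspb7, Hsp90aa1 and Hspa8 had differences of 0.32, 0.25 and -0.06 with adjusted p of at least 0.66. None of 26 other chaperones passed in either direction, and of 11 immediate early genes 1 rose, Fos at 1.55 ± 0.47.

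By day 14 the ranges of all 6 members tested overlapped those of sham. Hspb1 measured 422, 326 and 511 CPM on 3 IR plates and 323, 704, 91.1, 354 and 339 CPM on the sham day 14 plates. Cryab measured 2835, 2053 and 2373 CPM against 2214 to 3519 CPM. No member passed, with differences between -0.20 for Cryab and 0.43 for Hsp90aa1 and standard errors from 0.34 to 0.42. Few genes passed at all, 0.188% of those tested, and 195 of 4251 had an unadjusted p under 0.05. No other chaperone passed either, nor did any immediate early gene.

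The effect of IR on Hspb1 differed between the 2 times when tested directly. The day 14 effect minus the day 1 effect was -3.10 ± 0.62 (adjusted p = 0.000989). It was the 1 member called of 6 tested, with 6.09% of all genes called. With a block for replicate number in the fit, Hspb1 was -2.28 and not called (adjusted p = 0.065). Cryab gave -1.06 ± 0.59 (adjusted p = 0.284). Restricting the cells to at least 2000 UMIs gave -2.67 for Hspb1 with an adjusted p of 0.0602. The median gene moved by 0.61 in this contrast under TMM and by 0.04 under RLE, and with RLE factors Cryab was called too, at -1.83.

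Time after sham surgery was compared next. None of 6 members passed between sham day 1 and sham day 14, with 0.706% of all genes called. The largest difference was that of Hspb6, at 295 to 602 CPM on day 1 and 540 to 1484 CPM on day 14 (-0.91 ± 0.35, adjusted p = 0.283), and it was called with at least 10 cells per plate (-1.02, adjusted p = 0.0499).

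**Figure D2:**
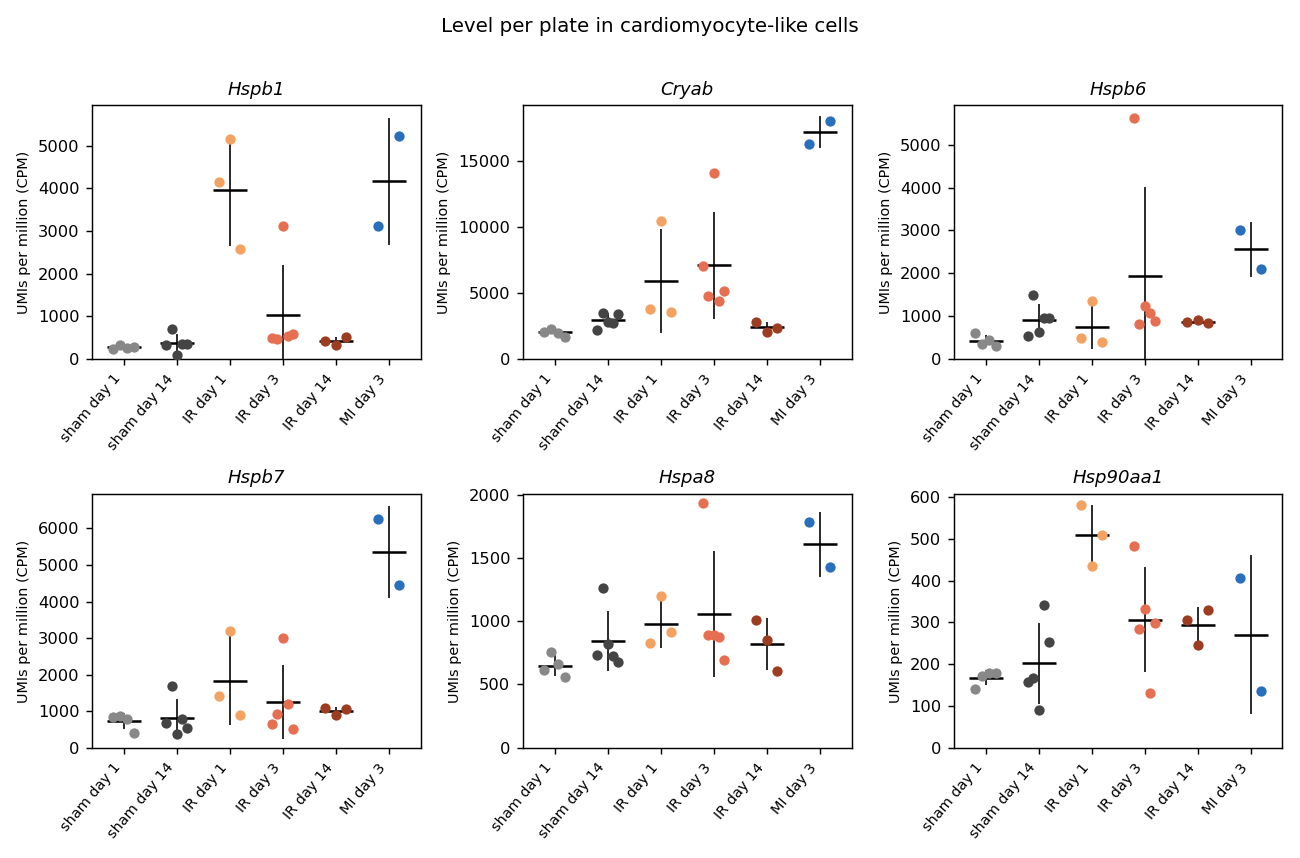
Level of 6 members in cardiomyocyte-like cells by group, in CPM on linear axes from 0, with 1 point per plate, a black line at the mean and a vertical line for the SD whose lower end is cut at 0 where it would pass it. Hspb1 stands at 2572 or more on all 3 IR day 1 and both MI plates and on 1 of 5 IR day 3 plates, and no other plate exceeds 704.

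After permanent ligation all 4 small heat shock proteins were higher than in sham in cardiomyocyte-like cells. On the 2 MI plates with at least 5 of these cells, with 6 cells each, Cryab measured 16330 and 18040 CPM, Hspb1 3116 and 5228 CPM, Hspb7 6244 and 4459 CPM and Hspb6 3015 and 2105 CPM. All of these values exceeded every sham plate, and how many of all genes did so was not counted. The differences from sham were 2.89 ± 0.38 for Hspb1, 2.09 ± 0.38 for Cryab, 2.06 ± 0.38 for Hspb7 and 1.33 ± 0.36 for Hspb6, with adjusted p from 3.38e-09 to 0.00252. These 4 of 6 members stand beside 36.0% of all genes called. Hspa8 (0.42 ± 0.36) and Hsp90aa1 (-0.14 ± 0.45) did not pass, although DESeq2 called Hspa8 at 0.68 (adjusted p = 0.00875). Hsp90aa1 measured 405 and 136 CPM on the MI plates. Without MI replicate 2 Hspb6 was 0.88 (adjusted p = 0.321), and it also lost its call with no gene filter (1.26, adjusted p = 0.0729). Without that plate the genes called over the whole table fell from 1531 to 582. The median gene moved by -0.23 under TMM and by 0.06 under RLE factors, and these 4 members were called under both.

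The MI cells also differed from sham in other ways. Their median depth was 8298 nuclear UMIs against 2292 and 1980 in the sham groups, and mitochondrial transcripts made up a median of 5.83% of all UMIs per cell against 81.1% and 83.5%. Summed cardiomyocyte markers were 61370 and 71930 CPM, below the sham plates at 74520 to 123600 CPM, and 5 of 10 were lower. Rn45s measured 69380 and 15680 CPM on the MI plates, 238300 to 286600 CPM at sham day 1 and 32630 to 371400 CPM at sham day 14. Leaving Rn45s out changed no member's call in this comparison. The part of depth, mitochondrial content and the separate plate series in the members' values was not tested. Among 26 other chaperones 2 rose, the small heat shock protein Hspb2 (1.58 ± 0.44) and the Hsp70-Hsp90 organiser Stip1 (1.54 ± 0.44). Another 5 fell, including mitochondrial Hspd1 (-1.57 ± 0.52) and the myosin chaperone Unc45b (-1.46 ± 0.54). Of 11 immediate early genes 1 rose, Jund.

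Hspa1a, Hspa1b and Dnajb1 were too rare in cardiomyocyte-like cells for the test. Hspa1a and Hspa1b summed to 0 to 27.5 CPM on the sham plates, 0 to 18.5 CPM at IR day 3 and 3.67 to 8.85 CPM at IR day 14. Both were at 0 on the MI plates, where a count of 0 allows up to 38.0 and 67.9 CPM. At IR day 1 the sum was 0, 380 and 21.3 CPM, so that 1 plate of 5 cells stood apart. Dnajb1 lay between 0 and 54.3 CPM on all plates but those of MI, which gave 38.0 and 90.5 CPM.

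Within the cardiomyocyte-like cells the small heat shock proteins were highest in 1 of 4 clusters, which was led by Sprr1a, Nppa and Nmrk2, genes of stressed muscle cells. Cryab itself was among its 10 leading genes although no member entered the clustering. It held 23 of 34 cells at IR day 1, 179 of 281 at IR day 3, 29 of 344 at IR day 14 and 19 of 20 after MI, but 7 of 235 and 3 of 232 in the sham groups. Pooled over groups, Cryab was 9385 CPM there and 1655 to 2990 CPM in the other clusters, Hspb1 was 2218 against 227 to 363 CPM, and Hspb7 was 2391 against 635 to 953 CPM. Hspa8 differed less, at 1167 against 526 to 851 CPM.

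The gap was also seen within single plates, where both kinds of cell shared library and sequencing run. Of 7 plates with at least 5 cells of each kind, Cryab, Hspb1 and Hspb7 were higher in the Sprr1a cluster on all 7, and Hspb6, Hspa8 and Hsp90aa1 on 6. The rare Hspa1a was higher there on 4, and Hspa1b and Dnajb1 on 2. How many of all genes were higher on as many plates was not counted. On IR day 3 replicate 5 the 5 cells of the Sprr1a cluster carried 29780 CPM of Cryab and 7077 CPM of Hspb1, and the 11 others carried 3526 and 464 CPM. On replicate 4, which had the most cells of that cluster, 97 cells had 6198 CPM of Cryab and 648 CPM of Hspb1, and 47 others had 3544 and 306 CPM. The size of the gap thus varied among plates. No test was made, because the clusters were formed on these cells from genes that may vary with the members.

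**Figure D3:**
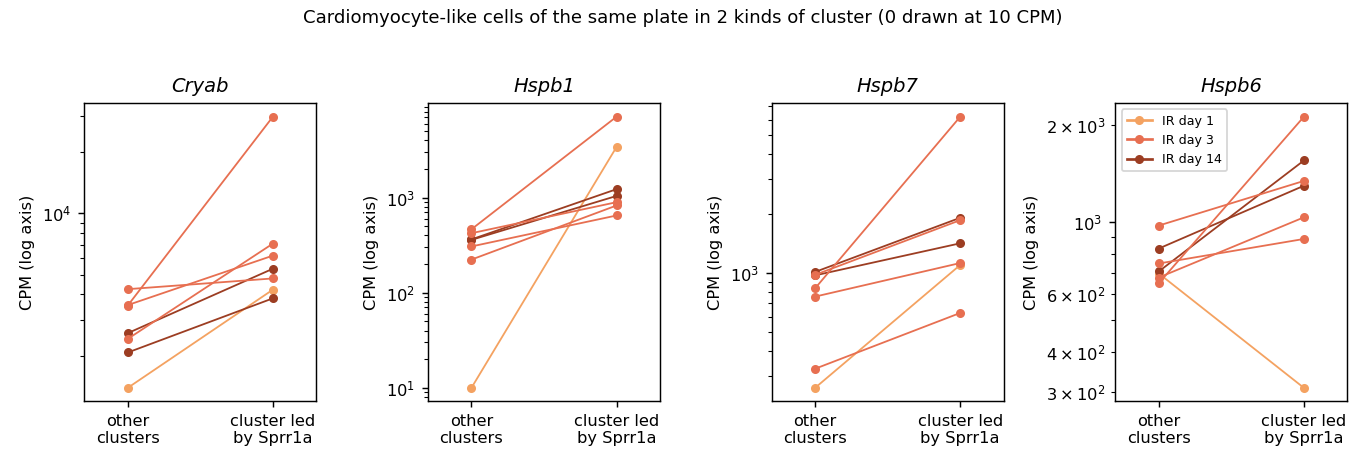
Level of Cryab, Hspb1, Hspb7 and Hspb6 in all other cardiomyocyte-like cells (left) and in the Sprr1a-led cluster (right) of the same plate, in CPM on a log axis, with 1 line per plate over 7 plates and values of 0 drawn at 10. The lines of Cryab, Hspb1 and Hspb7 rise towards the Sprr1a cluster on all 7 plates.

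Endothelial-like cells were next compared, since they carry Hspb1 and the inducible Hsp70 pair. At IR day 1 no member passed, while 12.9% of all 3387 genes were called. Dnajb1 came closest, at 22.9 to 213 CPM on 8 IR plates (median 113.5) against 19.99 to 45.9 CPM on 4 sham day 1 plates, with a difference of 1.48 ± 0.55 (adjusted p = 0.0689). DESeq2 called it (1.58, adjusted p = 0.0489), together with Hspa8 (0.54). Hspb1 ranged from 47.5 to 1393 CPM on the IR plates and surrounded its sham range of 548 to 810 CPM (0.11 ± 0.38). Hspa1a and Hspa1b together lay at 0 to 419 CPM against 147 to 510 CPM (-0.99 ± 0.48, adjusted p = 0.184). Among 21 other chaperones tested none rose and 2 fell, Unc45b and Fkbp4, and 7 of 10 cardiomyocyte markers were lower beside them.

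At day 14 none of the 9 members passed and 0.0% of all genes did by edgeR or by DESeq2, with 161 genes at an unadjusted p under 0.05. Hsp90aa1 had the largest member difference, at 347, 611 and 771 CPM on 3 plates against 237 to 435 CPM in sham day 14 (0.84 ± 0.36, adjusted p = 0.879). Sham day 1 against sham day 14 likewise gave no member and 0.0% of genes, 319 of them at an unadjusted p under 0.05 and 26 called by DESeq2. There Hspb6 did not overlap, at 84.1 to 210 CPM on day 1 and 291 to 605 CPM on day 14 (-1.50 ± 0.47, adjusted p = 0.331), and DESeq2 called it. On 3 plates of IR day 3, which entered no comparison of this class, Hspb1 measured 209, 228 and 639 CPM, Hspa8 1964 to 2216 CPM and the inducible pair 0 to 49.8 CPM. The difference between the IR effects of day 14 and day 1 passed for no member, with 0.118% of genes called. Dnajb1 gave -1.63 ± 0.88 there (adjusted p = 0.442).

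After MI the endothelial-like cells differed from sham in 8 of the 9 members, beside 35.3% of all genes. The muscle-type members were lower. Cryab measured 78.7, 60.0, 21.9, 102 and 150 CPM on 5 MI plates and 389 to 1681 CPM on 8 sham plates (-3.25 ± 0.53). Hspb6 was 7.29 to 36.8 CPM against 84.1 to 605 CPM (-3.46 ± 0.47), and Hspb7 was 0 to 28.6 CPM against 106 to 530 CPM (-4.06 ± 0.61). None of these ranges overlapped, and how many of all genes stayed apart in this way was not counted.

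Hspb1 and the inducible pair were lower too. Hspb1 measured 191, 192, 145.8, 262 and 99.9 CPM on the MI plates, all below the sham range of 380 to 810 CPM (-1.78 ± 0.38, adjusted p = 0.00037). Hspa1a (-2.74 ± 0.61) and Hspa1b (-2.80 ± 0.56) were lower, and their sum was 36.0 to 65.6 CPM against 0 to 762 CPM (-2.79 ± 0.52, adjusted p = 6.6e-05). The sum overlapped sham through 1 plate, the pooled replicates 2 and 7 of sham day 14, which had 0. The other 7 sham plates ran from 147 to 762 CPM.

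The cytosolic Hsp90 and Hsp70 genes went the other way. Hsp90aa1 was 499 to 1086 CPM on the MI plates against 237 to 435 CPM (1.01 ± 0.26, adjusted p = 0.00206), and Hspa8 was 1757 to 2718 CPM against 1039 to 1742 CPM (0.74 ± 0.21, adjusted p = 0.00571). Neither range overlapped with sham. With no gene filter Hspa8 was 0.81 and missed the threshold (adjusted p = 0.0769). Dnajb1 did not pass (0.15 ± 0.46). Of 21 other chaperones 4 rose, Hsp90ab1 (0.82 ± 0.24) and the Hsp70 cofactor St13 (1.38 ± 0.41) among them, and 2 fell, Unc45b (-2.97 ± 0.35) and the small heat shock protein Hspb8 (-2.73 ± 0.54). Of 16 immediate early genes 1 rose and 2 fell, namely Klf4 and Btg2.

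**Figure D4:**
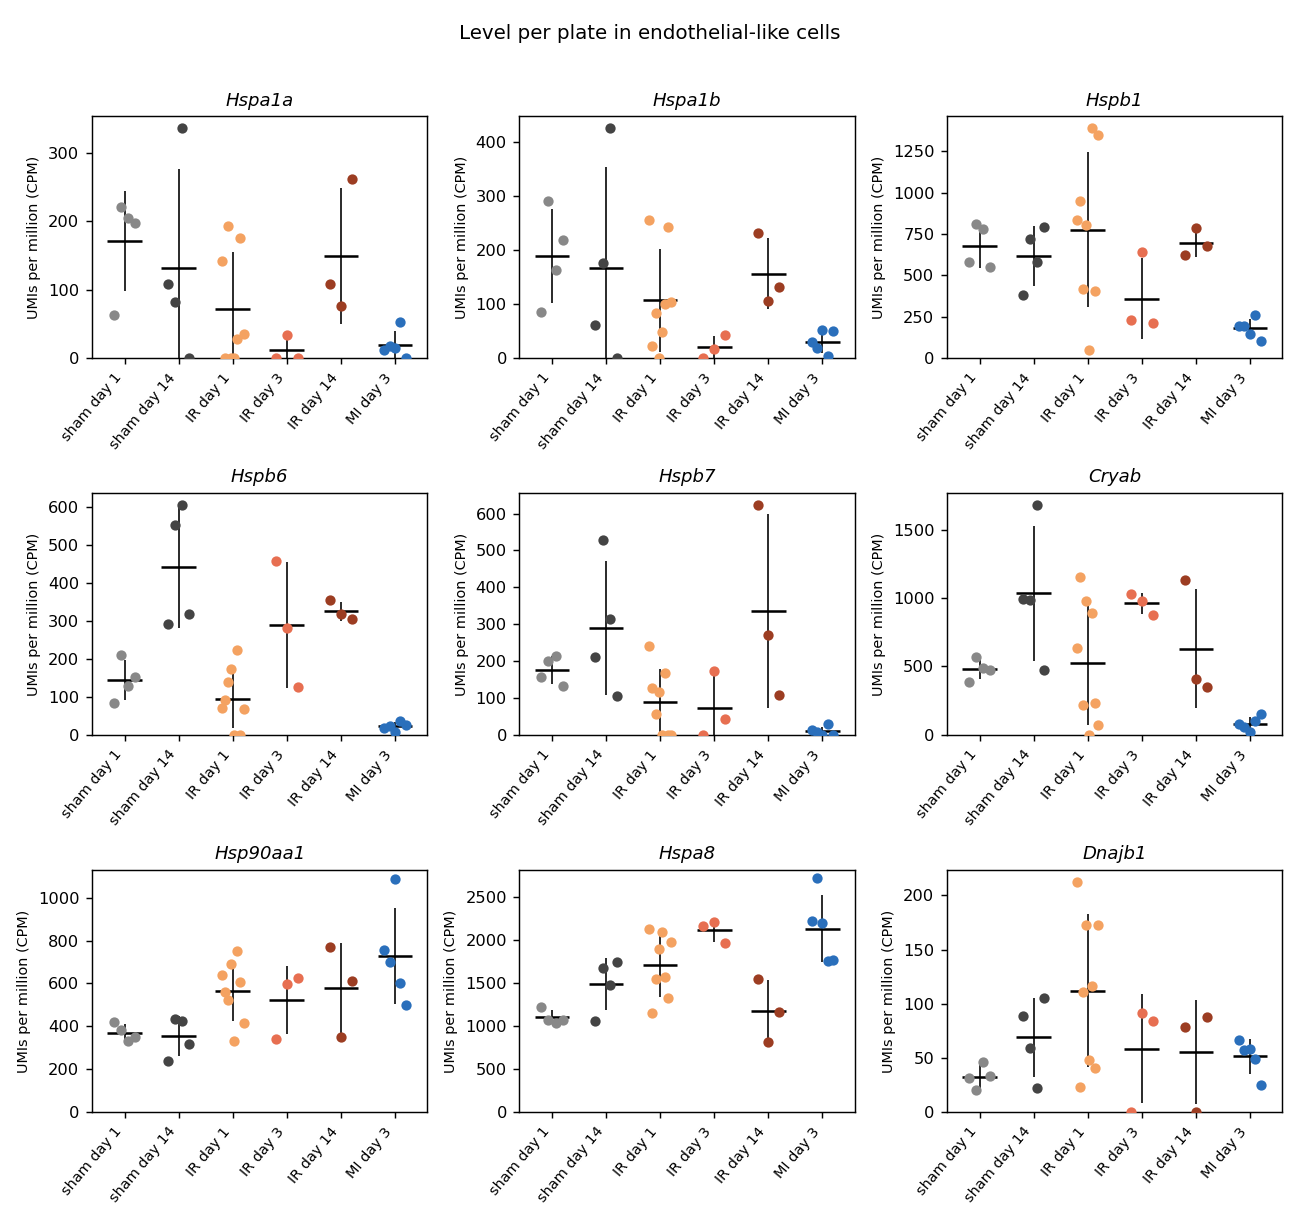
Level of the 9 members in endothelial-like cells by group, in CPM on linear axes from 0, with 1 point per plate, a black line at the mean and a vertical line for the SD whose lower end is cut at 0 where it would pass it. The 5 MI plates lie below all sham plates for Cryab, Hspb6, Hspb7 and Hspb1 and above them for Hsp90aa1 and Hspa8. In this comparison 35.3% of all genes were called, and how many stayed apart was not counted.

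Muscle transcripts moved with the endothelial values. All 10 cardiomyocyte markers were lower after MI, and their sum was 47.7 to 290 CPM on the MI plates against 10820 to 38240 CPM on the sham plates, with Ryr2 at 0 and Myh6 and Ttn at 1 UMI each. As a share of the level in cardiomyocyte-like cells of the same group, the markers stood at a median of 17.6% in endothelial-like cells of sham day 1 (9.76 to 25.1% over the 10 markers), 31.7% at sham day 14 and 0.197% after MI. Cryab stood at 23.8%, 36.0% and 0.371%, and Hspb7 at 24.5%, 33.8% and 0.227%, which is near the markers. Hspb6 stood at 31.4%, 43.7% and 0.896%. Their part in the lower Cryab, Hspb6 and Hspb7 was not tested, since 74 of 79 endothelial-like cells of sham day 14 carried markers of another class and no plate was left without them.

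Hspb1 had a different share. It stood at 267% of the cardiomyocyte-like level at sham day 1 and at 132% at sham day 14, above all 10 markers, and at 3.52% after MI. Hsp90aa1 and Hspa8 stood at 218% and 166% at sham day 1. Hspa1a and Hspa1b were at most 19.7 CPM on any sham cardiomyocyte-like plate. In these sham groups 139 of 170 endothelial-like cells belonged to a cluster whose leading genes included Cd300lg and Fabp4, and after MI 53 of 57 belonged to another with Plvap and Vwf. The MI and sham values are thus those of different clusters within the class. Depth and mitochondrial content also moved with MI, at a median of 16645 nuclear UMIs and 11.2% mitochondrial UMIs per endothelial-like cell against 3495 and 2960 UMIs and 40.6% and 45.1% at sham day 1 and day 14, and their part was not tested.

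**Figure D5:**
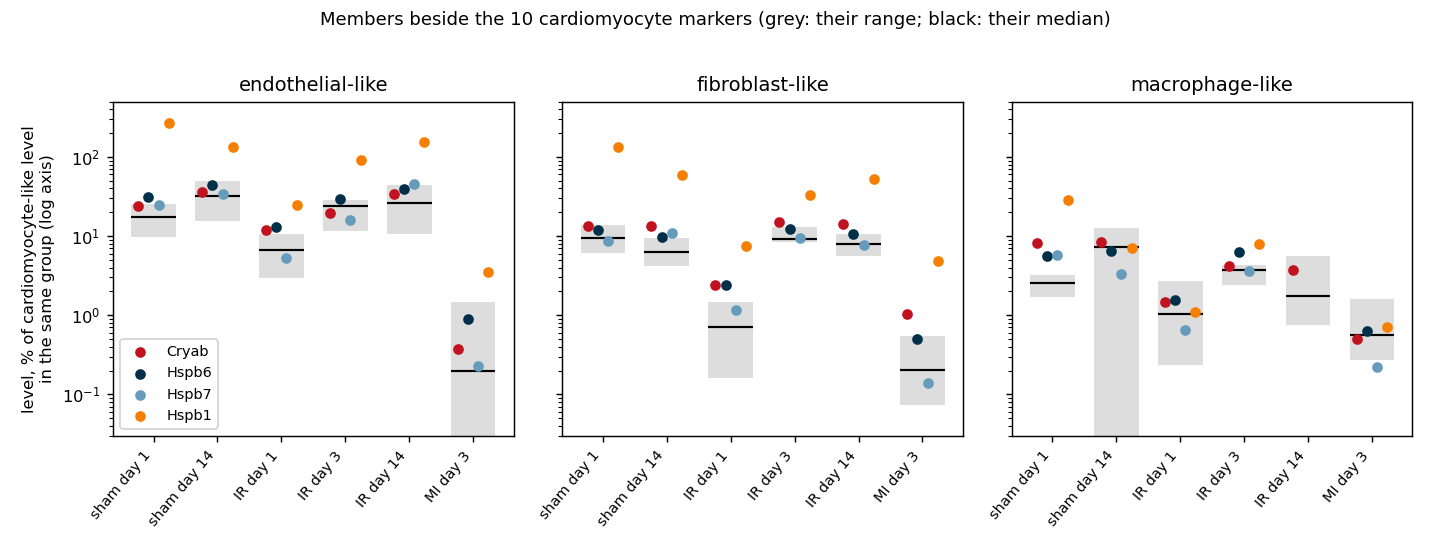
Level of Cryab, Hspb6, Hspb7 and Hspb1 in endothelial-, fibroblast- and macrophage-like cells as a percentage of its level in cardiomyocyte-like cells of the same group, on a log axis, beside grey bars for the range and black lines for the median of the 10 cardiomyocyte markers, with bars cut at 0.03% and values of 0 not drawn. In endothelial-like cells Cryab lies within the bars at sham day 1 (23.8%) and after MI (0.371%) and above them at IR day 1 (12.0%), whereas Hspb1 lies above them in these groups.

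In macrophage-like cells 8 members could be tested, Hspb7 being too rare, and Hspa8 and Hsp90aa1, the members with most UMIs there, were not called by the main test. Hspa8 was 1730 to 3220 CPM on 9 IR day 1 plates (median 2210), 1438 to 3842 CPM on 6 IR day 3 plates and 2003 to 2597 CPM on 5 MI plates. Hsp90aa1 was 391 to 859 CPM at IR day 1, 247 to 683 CPM at IR day 3 and 724 to 852 CPM after MI. From IR day 1 to day 3 it differed by -0.65 ± 0.27 (adjusted p = 0.0706), and from IR day 3 to MI by 0.80 ± 0.29 (adjusted p = 0.077), where the ranges did not overlap. Both of these Hsp90aa1 differences were called by DESeq2 (-0.61 and 0.73), with at least 10 cells per plate (-0.56 and 0.63) and without cells that carried markers of another class (-1.002, adjusted p = 0.00133, and 0.99, adjusted p = 0.00346). Both were also called without sham day 1 replicate 4 (adjusted p = 0.0162 and 0.0133). Hspa8 differed by -0.30 ± 0.19 from IR day 1 to day 3 (adjusted p = 0.27) and was called at 10 cells per plate (-0.53) and in cells of at least 2000 UMIs (-0.63, adjusted p = 0.00801).

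Hspb6 was the member called by the main test in macrophage-like cells. It was higher at IR day 3 than at IR day 1 (1.82 ± 0.58, adjusted p = 0.0192), with 25.8% of all 5133 genes called, and lower after MI than at IR day 3 (-1.60 ± 0.45, adjusted p = 0.0225), with 9.23% called. MI against IR day 1 gave no member, with 7.15% called. The MI cells were deeper, with a median of 22838 nuclear UMIs against 9103 and 8383 at IR day 1 and day 3. Hspb6 levels were 0 to 31.3, 0 to 170 and 6.93 to 34.6 CPM at IR day 1, IR day 3 and MI, so every pair of groups overlapped. The 9 cardiomyocyte markers tested moved the same way, 9 higher at IR day 3 and 9 lower after MI, with sums of 137 to 1022, 670 to 3568 and 151 to 764 CPM. Without cells that carried markers of another class the first difference fell to 1.12 (adjusted p = 0.295), whereas the second stayed at -1.41 but no longer passed (adjusted p = 0.125). The second was also not called without MI replicate 1, 2 or 4, at -1.36, -1.50 and -1.35 (adjusted p = 0.0972, 0.0813 and 0.102), nor by DESeq2 (-1.57, adjusted p = 0.0575). Cryab was called without MI replicate 5 in both, at 1.24 and -1.37, and with no gene filter in the first (1.21, adjusted p = 0.00211).

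Among the other chaperones of these macrophage-like cells, from IR day 1 to day 3 Fkbp5 (-3.09 ± 0.49), Ptges3 (-1.22 ± 0.22), Hsp90ab1 (-0.65 ± 0.17) and Hspa9 (-0.83 ± 0.26) fell, which made 5 lower and 1 higher of 24 tested. Of the immediate early genes 13 of 16 fell, and their sum was 12240 to 29200 CPM at IR day 1 and 2507 to 16740 CPM at IR day 3. From IR day 3 to MI, Fkbp5 (2.41 ± 0.47) and Ptges3 (1.02 ± 0.23) were higher, the 2 calls among 24, and 3 of 16 immediate early genes were higher. Between MI and IR day 1 no other chaperone passed and 5 of 16 immediate early genes were lower. The mix of clusters differed too, since a cluster with Gpnmb and Cbr2 among its leading genes held 171 of 195 macrophage-like cells at IR day 3, 18 of 109 at IR day 1 and 41 of 281 after MI.

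Fibroblast-like cells allowed the 2 kinds of ligation to be set side by side at day 3. After MI Hspa8 was higher, at 2387, 2087, 2316, 1906 and 2076 CPM against 1364, 1037, 1268 and 837 CPM at IR day 3 (1.01 ± 0.25, adjusted p = 0.00924). These ranges did not overlap. Hspb6 (-3.17 ± 0.50), Hspb7 (-3.06 ± 0.64) and Cryab (-1.77 ± 0.54) were lower, and these 4 of 9 members stand beside 11.4% of all 6504 genes. Cryab measured 224, 637, 49.7 and 1596 CPM at IR day 3 and 182 to 292 CPM after MI, so the IR plates lay on both sides. Hspb7 measured 0, 113, 0 and 78.7 CPM at IR day 3 around 5.84 to 12.0 CPM after MI, and Hspb6 measured 81.4, 92.4, 0 and 193 CPM around 7.01 to 15.9 CPM. Hsp90aa1 measured 366 to 1317 CPM and 1012 to 1502 CPM (0.82 ± 0.33, adjusted p = 0.113), and was called at 10 cells per plate (1.05, adjusted p = 0.027) and with no gene filter (1.01, adjusted p = 0.0397). Hspa1a, at 1.83 ± 0.84 (adjusted p = 0.17), was called with no gene filter (2.00, adjusted p = 0.00375), but Hspa1b was -0.81 and their sum -0.10 ± 0.58 (adjusted p = 0.949).

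All 10 cardiomyocyte markers were lower after MI here as well, with sums of 27.5 to 214 CPM against 1241 to 15140 CPM. The 2 IR plates with the highest sums, replicates 4 and 7, were also the highest in Cryab. Without cells that carried markers of another class 1 member was called, Hspa8, with Hspb6 at -1.69, Hspb7 at -2.01 and Cryab at -1.003. Without replicate 4 only Hspb6 was called, with Hspb7 at -2.34 (adjusted p = 0.137), Cryab at -1.87 (adjusted p = 0.0557) and Hspa8 at 0.92 (adjusted p = 0.0511). Without replicate 7, Cryab was -0.82 (adjusted p = 0.375) and Hspa8 0.85 (adjusted p = 0.063). Without any 1 of MI replicates 1 to 4 Cryab missed the threshold at an unaltered size, between -1.81 and -1.77 (adjusted p from 0.0545 to 0.0653). With RLE factors the median gene moved from 0.10 to -0.08 and Hspa8 was 0.77 (adjusted p = 0.0514). The MI cells had a median of 44902 nuclear UMIs and 7.09% mitochondrial UMIs against 2760 UMIs and 20.4% at IR day 3, and their immediate early genes summed to 5412 to 7696 CPM against 2883 to 5454 CPM, with 1 of 16 higher. The part of these in the members' values was not tested. Of 27 other chaperones 4 rose and none fell, mitochondrial Hspd1 (1.75 ± 0.30), the Hsp90 partners Ptges3 (1.39 ± 0.27) and Fkbp5 (1.92 ± 0.48) and Hsp90ab1 (0.76 ± 0.25). Nearly all MI cells, 134 of 135, belonged to a cluster led by Timp1 and Cxcl5, which held 36 of 73 cells at IR day 3.

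Other groups of fibroblast-like cells entered no comparison and are given as values. Hspa8 measured 2473 to 3770 CPM on 5 plates of IR day 1, above 550 to 1223 CPM on 3 plates of sham day 1 and 498 and 757 CPM on 2 plates of IR day 14. Hsp90aa1 ran the same way, at 908 to 1718, 228 to 825 and at most 426 CPM. Summed cardiomyocyte markers went the opposite way, with 62.5 to 516 CPM at IR day 1 and 5184 to 17090 CPM at sham day 1, and their part was not tested. Hspb1 measured 55.6 to 812 CPM at IR day 1, and this range enclosed the 313 to 520 CPM of sham day 1.

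The inducible pair was carried by few cells. Hspa1a and Hspa1b had 1600 and 1661 UMIs over all 3127 cells, and a UMI of either was found in 509 cells (16.3%). A single well of an unnamed cluster, on IR day 1 replicate 2, held 360 of these 3261 UMIs, which was 9.43% of its 3816 nuclear UMIs. On macrophage-like plates of IR day 1 the sum was 19.6 to 177 CPM on 8 plates and 1117 CPM on replicate 6, which had 5 cells. On the 3 macrophage-like plates of sham day 1 it was 91.5, 1628 and 676 CPM. At IR day 3 the sum was 0 to 634 CPM and after MI 25.2 to 130 CPM. The ranges of all 4 groups overlapped, and neither gene passed the main macrophage tests. For MI against IR day 1 Hspa1b was -1.51 ± 0.89 (adjusted p = 0.356), but it was called without MI replicate 5 (-2.89, adjusted p = 0.0409) and with no gene filter (-1.36, adjusted p = 0.0233). The sum of the pair was -1.21 ± 0.75 (adjusted p = 0.39). This sum was called with no gene filter (-1.06, adjusted p = 0.038) and turned to 0.24 without cells that carried markers of another class.

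Across the 24 pools of class and group with at least 10 cells the members were set against each other. These pools share plates and depth, and the correlations of log2(CPM + 10) are descriptions only. Hspb6, Hspb7 and Cryab followed each other at r from 0.961 to 0.978, and Hspb1 followed them at 0.767 to 0.806. Hsp90aa1 ran with Hspa8 at 0.738 and with Dnajb1 at 0.717, and against Hspb6 at -0.684. Hspa8 followed Dnajb1, Hspa1a and Hspa1b only weakly, at 0.440, 0.261 and 0.171. Hspa1a and Hspa1b ran together at 0.795.

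Among all genes of at least 50 CPM the closest to Hspb6 were Des and Tnnc1 (both r = 0.979), which encode desmin and cardiac troponin C, and Hspb7. Hspb7 was closest to Hspb6, Chchd10 and Csrp3, and Cryab to Hspb6, Smpx and Hspb7. Hspb1 was closest to the muscle cofilin Cfl2 (0.924), Rbpms and Clic5. Hsp90aa1 was closest to Eif3b (0.933), Ddx18 and Set, Hspa8 to Rars (0.902), Bola2 and Ran, and Dnajb1 to Zyx (0.879), Eef1a1 and Ywhaz. The genes closest to Hspa1a were Klf4 (0.828), Evi5 and Ahnak, and those closest to Hspa1b were Hspa1a, Ctcf and Eif4g3.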

How the data were processed

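Per the labels and the study's methods, hearts were digested with Liberase, live single cells were sorted by scatter into plates of 384 wells, and libraries were made by SORT-seq with poly(T) primers and UMIs of 6 bases. The authors mapped reads with BWA to GRCm38 (mm10) and deposited a table of UMI counts per gene and well for each of 36 plates. The BWA version, the annotation and the handling of reads that map to several genes are not given in the sources used here. The authors' own cell-level tests were not used.

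Mitochondrial genes were set aside, as in the study, and wells with at least 1000 nuclear UMIs were kept, 3146 of 13824. Plates held a median of 449247 nuclear UMIs. A total of 60 wells repeated a well of another plate, and 19 of these that passed the minimum were left out. Replicates 2 and 7 of sham day 14 held the same wells and were averaged into 1 sample for plate levels and tests. Both stayed in the clustering, counts of cells, pooled levels, shares of cells and correlations. Cells were clustered with scanpy 1.11.5 (2000 variable genes, 30 principal components, 15 neighbours, resolution 1.0) without the 9 members, and 17 clusters became 20 after 1 mixed cluster was split. A cluster took a class name if at least 3 fixed markers were raised 2-fold. No doublet caller was run, and cells with markers of another class were instead left out as an alternative. UMIs were summed per class and plate where at least 5 cells were present. They were tested with edgeR 4.0.16 (quasi-likelihood, TMM factors, low-count filter, R 4.3.3), all groups of a class in 1 fit, for 15 comparisons, with Benjamini-Hochberg adjustment over all genes and a threshold of 0.05. Alternatives were RLE factors, DESeq2 1.42.0, no gene filter, stricter cell or UMI minimums, no Rn45s, no mixed cells, a replicate block and leaving out each plate.

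Counting depth limits rare members, and a count of 0 allows a level of up to 3 UMIs of the plate and class. The 9 members are named in every comparison. Other chaperones are named by smallest p, up to 4 a comparison, immediate early genes likewise up to 2, and look-alikes as the 3 genes with the highest Pearson r. The members and lists were chosen with earlier results of these data known. Same-numbered plates showed little common deviation, and the main fits did not pair plates by replicate number. This does not exclude a mouse, day or batch shared by such plates.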

Additional observations from a re-analysis of the deposited data

Results flagged for a closer look

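Among 117 sets of 4 to 10 plates, 20 had a plate far outside the others by Dixon's criterion, and chance gives about 1 in 20. In cardiomyocyte-like cells IR day 3 replicate 5 stood apart in Hspb1 (3124 CPM), Hspb7 (2995 CPM), Cryab (14090 CPM) and Hspa1a (18.49 CPM, a single UMI, less than a count of 0 allows on replicates 3 and 6), and IR day 3 replicate 3 in Hspb6 (5637 CPM) and Hspa8 (1933 CPM). Hspa1b reached 16.52 CPM, or 3 UMIs, on sham day 1 replicate 2 and Hspa8 reached 1261 CPM on sham day 14 replicate 5. Endothelial-like cells of sham day 1 replicate 1 were low in Hspa1a, at 63.07 CPM against 197 to 220 CPM on the other 3 plates.

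In macrophage-like cells IR day 1 replicate 6, with 5 cells, stood apart in Hspa1a (715.8 CPM), Hspa1b (400.8 CPM) and Dnajb1 (229.0 CPM). The other 8 plates had at most 46.8 CPM of Hspa1a. Hspa1b also reached 341.6 CPM on IR day 3 replicate 5 and 68.09 CPM on MI replicate 5, a plate that also held 53.42 CPM of Hspb7. Fibroblast-like plates that stood apart were IR day 1 replicate 9 in Hspa1a (112.4 CPM), replicate 7 in Hspb1 (812.3 CPM) and replicate 3 in Dnajb1 (257.8 CPM), IR day 3 replicate 3 in Hspa1b (407.0 CPM) and MI replicate 5 in Cryab (291.9 CPM).

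The IR effect on Hspb1 in cardiomyocyte-like cells differed between day 14 and day 1 by -3.10 on the log2 scale. A well of an unnamed cluster, which entered no comparison, held 360 UMIs of Hspa1a and Hspa1b.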

How the results depend on the processing

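Each count of called members was recomputed under the alternatives that could be run. With RLE factors, 4 members were called in cardiomyocyte-like cells at IR day 1 and 2 in the difference between the IR effects. DESeq2 called 4 and 2 there, 2 in endothelial-like cells at IR day 1, 1 between the sham days of that class, and 2 in macrophage-like cells between IR day 3 and IR day 1. Leaving out Rn45s gave 2 in cardiomyocyte-like cells at IR day 1. With no gene filter 0 were called there at IR day 3, and in macrophage-like cells 2 between IR day 3 and IR day 1, 1 between MI and IR day 1 and 2 between MI and IR day 3. The same setting raised the comparisons in which the sum of Hspa1a and Hspa1b passed from 1 to 2. A minimum of 10 cells per plate gave 1 between the cardiomyocyte-like sham days (Hspb6), 3 in macrophage-like cells between IR day 3 and IR day 1 and 2 between MI and IR day 3. Cells of at least 2000 UMIs gave 0 for the cardiomyocyte-like difference between IR effects and 0 for macrophage-like MI against IR day 3. Without cells that carried markers of another class 1 member was called in fibroblast-like cells.

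The labels do not tie replicate numbers across groups, so the replicate block was kept as an alternative only. Deviations of same-numbered plates correlated at a median of -0.023 to 0.014 by class and at up to 0.137 for a cardiomyocyte-like pair. Such values cannot exclude a mouse or batch shared by these plates. With the replicate block Hspb6 lost its call in cardiomyocyte-like cells after MI (1.09, adjusted p = 0.123), and 0 members were called in cardiomyocyte-like cells at IR day 3 and in the difference between IR effects, 0 in macrophage-like cells for IR day 3 against IR day 1 and for MI against IR day 3, and 0 in fibroblast-like cells. Several of these kept their size, with macrophage-like Hspb6 at 1.84 and -1.75 and fibroblast-like Hspb7 at -3.07 and Hspa8 at 0.93, whereas fibroblast-like Cryab was -0.91 and Hspb1 was 0.86 at IR day 3 and -2.28 in the difference between IR effects.

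Leaving out 1 plate at a time gave 0 to 2 called members in cardiomyocyte-like cells at IR day 3, 1 to 2 at IR day 1, 3 to 4 after MI and 1 to 2 for the difference between IR effects. It gave 8 throughout in endothelial-like cells after MI. In macrophage-like cells the ranges were 1 to 2, 0 to 1 and 0 to 2 for IR day 3 against IR day 1, MI against IR day 1 and MI against IR day 3, and in fibroblast-like cells 1 to 4. The remaining comparisons stayed at 0. Over all genes, leaving out 1 plate gave 149 to 319 calls in cardiomyocyte-like cells at IR day 3 and 190 to 564 at IR day 1. For the difference between IR effects there were 95 to 314. Endothelial-like cells after MI had 952 to 1305 and fibroblast-like cells 343 to 870. The macrophage-like comparisons had 1186 to 1388, 182 to 387 and 268 to 523, in the order above. The direction turned in 3 results. Hspb7 in cardiomyocyte-like cells at IR day 1 was -0.025 under the minimum of 10 cells, which left 1 IR day 1 plate, and -0.551 in cells of at least 2000 UMIs, and the sum of Hspa1a and Hspa1b in macrophage-like cells was 0.244 for MI against IR day 1 without cells with other-class markers. The causes were not tested. Of the other fold changes, 1069 kept their side of the threshold, 36 gained a call and 39 lost one.

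Leaving single plates aside, the genes called over the whole table ranged over the other settings from 55 to 390 in cardiomyocyte-like cells at IR day 3 (main count 257), from 116 to 515 at IR day 1 (510), from 33 to 344 in the difference between effects (259) and from 2 to 479 in endothelial-like cells at IR day 1 (437). They ranged from 103 to 1017 for macrophage-like MI against IR day 1 (367), from 178 to 1019 for MI against IR day 3 (474) and from 201 to 1448 in fibroblast-like cells (741). For macrophage-like IR day 3 against IR day 1 they were 753 to 1994 (1323), for MI against sham 1026 to 1603 (1531) in cardiomyocyte-like and 1117 to 1840 (1194) in endothelial-like cells, for IR day 14 1 to 18 (8) and 0 to 8 (0), for the sham days 6 to 52 (30) and 0 to 26 (0), and for the endothelial-like difference between effects 0 to 58 (4). MI against sham was not run at 10 cells per plate for cardiomyocyte-like cells, nor without mixed cells for endothelial-like comparisons with sham day 14, because no plate was left.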

Other observations

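The well of IR day 1 replicate 2 that held 360 UMIs of Hspa1a and Hspa1b had 3816 nuclear UMIs in all. Its most counted genes were Rn45s with 606 UMIs, Hspa1b with 200, Hspa1a with 160, Hsp90aa1 with 142 and Malat1 with 107, and it also held 44 UMIs of Hspa8 and 39 of Egr1. The well next in number was a mural-like cell of MI replicate 4 with 137 UMIs of the pair among 426261. Pooled over the unnamed wells, Cryab stood at 800.5 CPM, Hspa8 at 607.5 CPM, Hsp90aa1 at 461.5 CPM and Hspb1 at 353 CPM.

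Neutrophil-like cells, present mainly at IR day 1 and after MI, entered no test. Hspb1 measured 40.2 to 427 CPM on 9 IR day 1 plates and 26.4 to 323 CPM on 5 MI plates, Hspa8 185 to 795 and 449 to 1211 CPM, and Cryab 40.2 to 1587 and 0 to 415 CPM. Summed cardiomyocyte markers were 763.5 to 6262 CPM and 228 to 1222 CPM on the same plates, and their part in the Cryab values was not tested.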
